A study of Homo sapiens with 2 samples.

Results

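The 796 regions described here are strong, narrow peaks of accessible chromatin that were present both in SMARCA4-knockdown and in control cells of Z-138, a mantle cell lymphoma line. They were chosen by measured values. Each is a control peak on chromosomes 1 to 22 or X with a fold of 12 or more and a width below 250 bp, overlapped by at least 1 bp by a knockdown peak whose fold was also 12 or more. The fold is the authors' ratio of the reads stacked at a peak's summit to the background expected there. The 796 peaks were 1.44% of the 55124 control peaks on these chromosomes (95% exact binomial interval 1.35 to 1.55%), and their partners were 796 of the 41540 knockdown peaks. Fold in both lists and width in the control list chose them, so these values are a description and support nothing further.

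Z-138 is an established human line of a malignancy of mature B cells. The knockdown library came from cells with an shRNA against SMARCA4 and the control library from cells with a control shRNA, 1 ATAC-seq library each. Doxycycline was present in both cultures, per the labels, which name no other agent. The promoter that drives the shRNA, and whether a line is 1 clone, are not stated in the labels. Peak lists measure no RNA or protein, so neither the knockdown nor B-cell markers were checked. With 1 library per group there is no test between groups and no measure of the spread between cultures. All intervals below cover counting error over regions or reads only.

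ATAC-seq cuts open chromatin with a transposase, so a peak marks DNA that is not wrapped in a nucleosome. A narrow, sharp peak is the usual form at a single site held open by 1 or a few bound proteins, of which the insulator protein CTCF is the best known example. Wide peaks are more usual at active promoters and at clustered enhancer elements. SMARCA4 is the ATPase of SWI/SNF complexes, which slide or evict nucleosomes and are known to keep many enhancers open, whereas CTCF sites are known to depend mainly on another remodeller family. Which proteins bind the peaks described here was not measured, and genes and sequences at the peaks are not reported, because no genome or annotation of the build hg19 was used. Regions are given by hg19 coordinates counted from 1.

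Neither list states read totals. The fold and p-value of each peak together give the number of reads stacked at its summit, called the summit pileup here, and the background. From these values the knockdown library had 9.76 M and the control library 6.89 M reads or fragments, under an assumed genome size of 2.7 Gb. Equal accessibility would then give summits 1.34 times as high in the knockdown library. At the lowest background, a fold of 12 needs 15 reads at the summit in the knockdown and 14 in the control library.

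Medians of fold, unscaled summit pileup and width lay close together in the 2 libraries. The rule sets the same lower limit on both folds, which by itself brings the folds together. For pileups, depth would give a ratio of 1.34, and the median ratio of knockdown to control was 1.09. The fold had a median of 14.4 in the knockdown list (interquartile range 13.1 to 16.2, highest 24.2) and 14.2 in the control list (13.1 to 16.1, highest 28.4). Summit pileups had a median of 24 reads in the knockdown library, between 15 and 54, and of 22 reads in the control library, between 14 and 56. The peaks were 124 to 765 bp wide in the knockdown list with a median of 208 bp, and 120 to 249 bp wide in the control list with a median of 203 bp. The upper end of the control widths is the limit of the rule, and the knockdown widths have no limit.

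**Figure D1:**
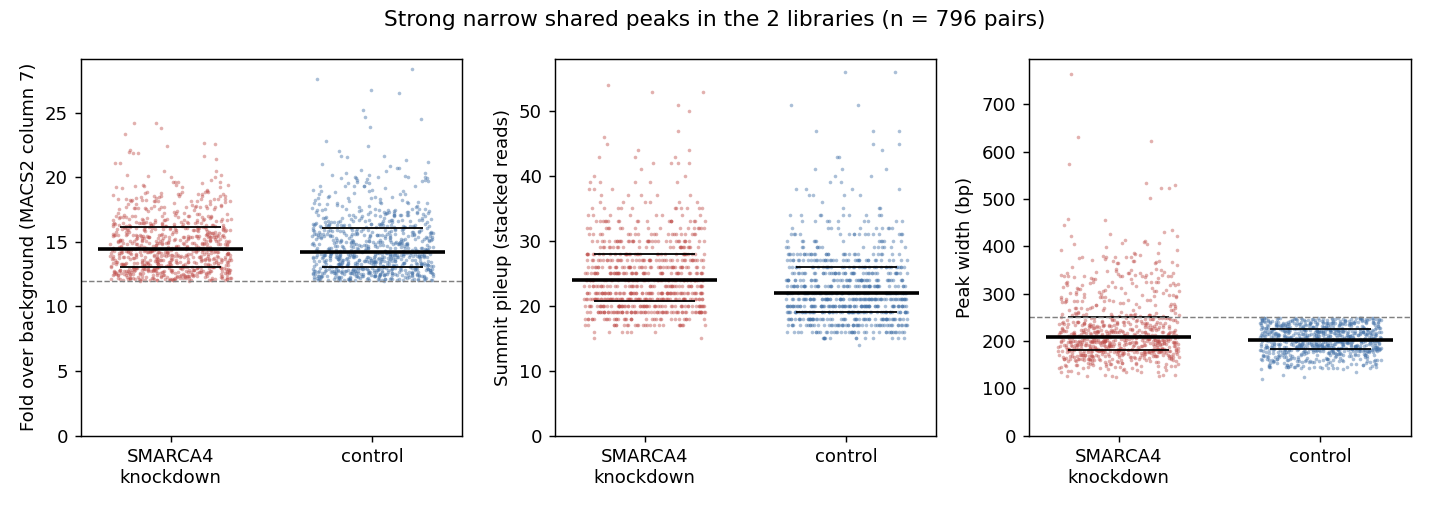
Fold over background, summit pileup in stacked reads and peak width in bp of the 796 strong narrow shared peaks, in the SMARCA4-knockdown list (left in each panel) and the control list (right); each point is 1 peak, the thick line is the median, thin lines are the quartiles and dashed lines are the limits of the rule. The medians, with pileups not scaled to depth, lie close together, and 201 knockdown partners lie above the 250 bp limit that was set on control peaks alone.

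The limits of the set cut through continuous values. Just inside the control limit, the fold of a peak on chromosome 6 from 93486996 to 93487137 was 12.7 in the knockdown and 12.004 in the control list. Just outside it, a peak on chromosome 11 from 57194496 to 57194670 had 12.5 in the knockdown and 11.99 in the control list. Just inside the width limit was a control peak of 249 bp on chromosome 6 from 167493361 to 167493609, and just outside was one of 250 bp on chromosome 14 from 45996528 to 45996777. Just inside the knockdown limit, a peak on chromosome 11 from 10757357 to 10757562 had a knockdown fold of 12.01. The nearest one outside it, on chromosome 2 from 164735363 to 164735541, had 11.99.

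Fewer than 1 in every 2 strong narrow control peaks entered the set. Of the 1750 control peaks with a fold of 12 or more and a width below 250 bp, 796 had a knockdown partner of that fold, or 45.5% (43.1 to 47.9%). A further 850, or 48.6%, had a weaker partner, and 104, or 5.94%, had none. Among all 5569 control peaks of that fold, 59.1% had a strong partner, and among all control peaks 10.1% did. Among the 3819 strong control peaks of 250 bp or more, 65.3% (63.8 to 66.8%) had a strong partner, 32.9% a weaker one and 1.75% none. Since the limit was set on both folds, these shares describe the selection.

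The share also varied with fold and with reads, and since both folds are part of the rule these bands again describe the selection. At folds from 12 to 13 the shares were 31.1% of 618 narrow and 49.8% of 1003 wide control peaks. At folds from 14 to 16 they were 54.9% of 417 narrow and 69.1% of 1078 wide peaks, and at folds of 20 or more 81.1% of 37 and 89.9% of 158, where the intervals overlapped (64.8 to 92.0% and 84.1 to 94.1%). With summits of 20 to 24 reads the shares were 48.9% of 638 narrow and 53.6% of 954 wide peaks, with overlapping intervals. With 25 to 29 reads they were 65.0% of 254 and 62.7% of 836, and with 30 to 39 reads 62.3% of 114 and 75.2% of 988.

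The same rule applied with the libraries exchanged gave a set of similar size. Of 1688 knockdown peaks with a fold of 12 or more and a width below 250 bp, 886 had a control partner of that fold, or 52.5% (50.1 to 54.9%), 798 had a weaker one and 4 had none. The 2 sets shared 595 pairs. These were 74.7% of the 796 control peaks and 67.2% of the 886 knockdown peaks. The set thus depends in part on which list the width limit is applied to.

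The peaks of highest control fold had fewer summit reads in the knockdown library than depth would give. At the top stood a peak on chromosome 15 from 20747071 to 20747287, whose summit held 28 reads (fold 21.9) in the knockdown and 41 reads (fold 28.4) in the control library. Its depth-scaled ratio of knockdown to control reads was 0.509 (exact counting interval 0.303 to 0.843). No other control peak lay within 104 kb of it, and its knockdown summit was 20 bp from the control summit. The peak on chromosome 22 from 18717988 to 18718209 was the only one of the set on that chromosome. It had 43 reads and a fold of 23.4 in the knockdown and 51 reads and a fold of 27.6 in the control library, a ratio of 0.628 (0.409 to 0.962). Like the peak on chromosome 2 at 183507148, it was among the 6 highest of the set in both lists.

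Next in control fold was a peak on chromosome 13 from 70509248 to 70509492, with 51 reads in the knockdown and 56 in the control library (ratio 0.679, 0.455 to 1.01). Its summits lay 1 bp apart. The peak on chromosome 7 from 110723598 to 110723810 had 28 reads in the knockdown and 47 in the control library, and its ratio of 0.444 (0.268 to 0.724) was the second lowest of the set. Its knockdown peak was 304 bp wide, against 213 bp in the control list. The peak on chromosome 2 from 183507148 to 183507345 had 47 and 43 reads in knockdown and control, with a ratio of 0.815 whose interval of 0.527 to 1.26 includes 1. On chromosome 3, the peak from 80154394 to 80154623 had 22 reads in the knockdown and 43 in the control library, the lowest ratio of all 796 at 0.381 (0.217 to 0.652), although both summits fell on the same base. All 6 ratios lay below 1, and 4 of their intervals did too. The median over all shared peaks was also below equality, at -0.24 on the log2 scale, so a ratio below 1 is not particular to these 6. These peaks were picked for a high control value, which by itself favours a ratio below 1.

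Among the peaks of highest knockdown fold, most depth-scaled ratios had intervals that include 1. A peak on chromosome 10 from 103124547 to 103124736 had the highest knockdown fold of the set, 24.2, with 34 reads, against a fold of 22.8 and 31 reads in the control library. It was sharp in both lists, 182 bp wide in the knockdown and 190 bp in the control list, with summits 1 bp apart. The peak on chromosome 2 from 166150286 to 166150517 had 54 reads in the knockdown, the most of any in the set, and 41 in the control library (ratio 0.982, 0.642 to 1.51). The peak on chromosome 3 from 179615837 to 179616059 had 43 and 33 reads in knockdown and control, with a ratio of 0.971 (0.603 to 1.58). On chromosome 7, the peak from 137846345 to 137846584 had 50 and 31 reads, with a ratio of 1.2 (0.753 to 1.95). The remaining 2 of the 6 highest were the peaks on chromosome 22 and on chromosome 2 at 183507148 already described. Of the 6 intervals, 5 included 1. These peaks were picked for a high knockdown value, which by itself favours a higher ratio.

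Over the whole set, summits were higher in the knockdown library in raw reads and lower after scaling to depth. The raw summit pileup was higher in the knockdown library at 494 of 796 peaks, or 62.1%, where 59.2% of all 33358 shared control peaks were. The median ratio of raw pileups was 1.09 over the 796 peaks (quartiles 0.952 to 1.22), against 1.34 given by depth. On the log2 scale the depth-scaled ratio had a median of -0.30 (95% interval of the median -0.34 to -0.29) and quartiles of -0.49 and -0.13. Over all shared peaks its median was -0.24 with quartiles of -0.62 and 0.08. Without scaling the median of the set was 0.12 and the direction was the opposite, so the sign rests on the recovered read numbers.

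Counts of large differences are bounded by the rule. A depth-scaled summit at least 1.5-fold lower in the knockdown library was seen at 122 of the 796 peaks, or 15.3%, where the background over all shared peaks was 26.4%. A summit at least 1.5-fold higher was seen at 1 of 796, or 0.126%, where the background was 4.76%. The rule demands a high value in both libraries and excludes large ratios by construction, so nothing is read from these counts. Strong wide shared peaks, chosen with the same fold limits, had 384 of 2494, or 15.4%, lower and 0 higher.

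**Figure D2:**
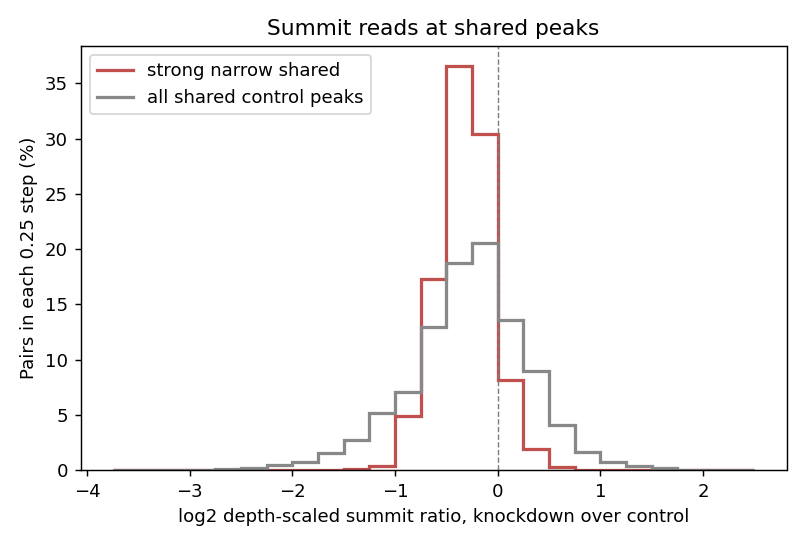
Share of pairs in each 0.25 step of the log2 depth-scaled summit ratio, knockdown over control, for the 796 strong narrow shared peaks and for all 33358 shared control peaks; the dashed line marks equality after depth scaling. The set is the narrower distribution, with quartiles of -0.49 and -0.13, and its centre is at -0.30 against -0.24 for all shared peaks.

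The extremes of the ratio were few. The highest, 1.53, belonged to a peak on chromosome 7 from 106239203 to 106239445, with 39 reads in the knockdown and 19 in the control library, and its counting interval of 0.863 to 2.8 includes 1. Its knockdown peak was 446 bp wide, against 243 bp in the control list, where another control peak lay 89 bp away. A peak on chromosome 13 from 76591013 to 76591204 had 42 reads in the knockdown and 22 in the control library, with a ratio of 1.42 (0.83 to 2.5). A peak on chromosome 11 from 40315682 to 40315886 had 30 and 17 reads, with a ratio of 1.32 (0.702 to 2.54). None of the 3 highest ratios had an interval above 1. At the low end, beside the peaks on chromosomes 3 and 7 given above, a peak on chromosome 3 from 143828852 to 143829100 had 20 reads in the knockdown and 33 in the control library. Its ratio was 0.452 (0.246 to 0.811), and its width was 241 bp in the knockdown and 249 bp in the control list.

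Reads in the 10 kb around a peak, which set the local background, were also fewer in the knockdown library than depth would give. Where a local background was recovered, the knockdown library held a median of 77 reads per 10 kb (787 peaks) and the control library 61 (790 peaks). Scaled to depth, the log2 ratio of these reads had a median of -0.15 over the 784 peaks with both values, beside -0.14 over all shared peaks. Relative to this local scale, the summit ratio of the set had a median of -0.16. The summit reads are themselves part of the 10 kb. Strong wide shared peaks had a median of 140 reads per 10 kb in the knockdown and 115 in the control library.

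Summit position and knockdown width were not part of the rule. The knockdown and control summits of the 796 peaks lay a median of 15 bp apart (interval of the median 13 to 16 bp, quartiles 6 and 27 bp), and at most 80 bp. In each of the 796 pairs every summit lay inside the partner peak, and each control peak had exactly 1 overlapping knockdown peak. Each summit lay inside the partner at 2493 of 2494 strong wide, 98.0% of weaker narrow and 87.8% of all shared peaks. More than 1 overlapping knockdown peak was seen at 2.85%, 0.064% and 2.37% of these. Both traits are thus not particular to the set. Summits fell on the same base in 28 pairs, within 10 bp in 318 and within 50 bp in 768, or 3.52%, 39.9% and 96.5%. Over all shared peaks these shares were 1.45%, 23.3% and 71.2%. The shift had no preferred side, with the knockdown summit at the lower coordinate in 410 pairs, or 51.5% (48.0 to 55.0%), and a median signed shift of -2 bp.

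Summits of strong wide shared peaks lay farther apart, at a median of 23 bp with quartiles of 9 and 46 bp. Summits within 10 bp of each other made up 39.9% of the strong narrow and 28.6% of the strong wide shared peaks, a difference of 11.3 percentage points (7.52 to 15.2). A narrow peak leaves its summit less room, so peaks of the same width limit but lower fold were also compared. For 3123 narrow shared peaks with control folds from 8 to 12 and knockdown folds of 8 or more, the median distance was 19 bp and 32.6% lay within 10 bp, which was 7.35 points fewer (3.62 to 11.2). In proportion to control width, the median distance was 7.28% in the strong narrow, 5.19% in the strong wide and 10.5% in the weaker narrow peaks. The order of narrow and wide peaks thus depends on whether distance is given in bp or relative to width. The weaker narrow peaks had medians of 15 summit reads in the knockdown and 13 in the control library, and the strong wide peaks had 33 and 30. The part of read number in the distances was not tested. Strong narrow control peaks with a weaker knockdown partner had a median distance of 16 bp, with 35.8% of pairs within 10 bp. Their difference of 4.19 points from the set had an interval that includes 0 (-0.501 to 8.85). Within 50 bp lay 92.2% of those pairs and 96.5% of the set, a difference of 4.25 points (2.03 to 6.51). Summits within 10 bp are thus not shown to be particular to peaks with a strong partner, while summits within 50 bp were more frequent in the set.

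**Figure D3:**
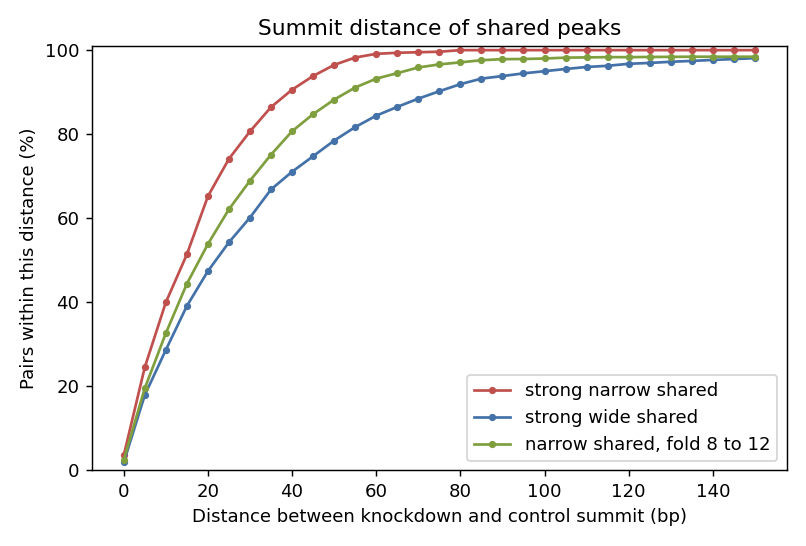
Cumulative share of pairs by the distance in bp between knockdown and control summit, for 796 strong narrow shared, 2494 strong wide shared and 3123 weaker narrow shared peaks. The strong narrow peaks rise fastest, with 96.5% of pairs within 50 bp, against 78.5% of strong wide and 88.2% of weaker narrow pairs.

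Within the set, the median summit distance was shorter at peaks with more control reads, and it showed no steady change with control width. The 231 peaks with 14 to 19 control reads had a median of 16 bp. Those with 20 to 24 reads had 15.5 bp, those with 25 to 29 reads 14 bp, and the 88 peaks with 30 or more reads 11 bp. The narrowest class of control widths, up to 174 bp, had a median of 13 bp over 137 peaks, and the widest class had 16 bp over 206 peaks. The classes between had 12 bp over 232 peaks and 17 bp over 221 peaks, in order of width. Quartiles of these classes overlapped, but they describe the spread of single peaks, and differences between the medians were not tested.

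Most of the peaks were narrow in the knockdown list as well. The knockdown partner was under 250 bp wide at 595 of 796 peaks, or 74.7% (71.6 to 77.7%). Over all shared control peaks, which have any control width, it was so at 20938 of 33358, or 62.8%. The share was 77.1% for the weaker narrow shared peaks, and the set differed from them by -2.36 points, with an interval of -5.8 to 0.906 that includes 0. The knockdown partner was the wider of the pair at 59.5% of the set, 57.4% of the weaker narrow and 48.4% of the strong wide shared peaks. It was no wider than the control peak at 40.5% of the set and 52.5% of all shared peaks. The narrow groups were limited to control widths below 250 bp and the wide one to 250 bp or more. This by itself favours a wider partner at narrow peaks and a narrower one at wide peaks, so nothing is read from that order. Strong narrow control peaks with a weaker knockdown partner differed from the set on both measures. Their partner was the wider at 36.2%, a difference of 23.3 points (18.5 to 27.9), and it was under 250 bp at 86.6%, a difference of -11.8 points (-15.6 to -8.04). Those partners were chosen for a lower fold. Knockdown and control widths were only loosely related across the set, with a Spearman correlation of 0.348 over 796 peaks that share the same 2 libraries and a restricted width, beside 0.743 over the strong wide peaks.

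Where the knockdown partner was 250 bp or wider, the added length lay mostly on 1 side. That such pairs have added length follows from the 250 bp limit on control peaks. The counts of sides and of neighbours below had no comparison group and are a description only. Over these 201 peaks the partner extended past the control peak by a median of 105 bp on its longer side and 6 bp on its shorter side. It was longer by 50 bp or more on 1 side only at 149 peaks and on both sides at 14. The longer side was the one toward lower coordinates at 103 and toward higher coordinates at 98. Another control peak lay inside or within 100 bp of the knockdown partner at 21 of the 201. The wider partners had summits no farther from the control summit, with a median of 16 bp, against 15 bp for the 595 narrow partners. The depth-scaled log2 ratio had medians of -0.33 for the wider and -0.29 for the narrow partners.

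The narrowest peaks of the set were on chromosomes 3 and 8. A peak of 120 bp on chromosome 3 from 112361879 to 112361998 had 19 reads in the knockdown and 17 in the control library, and its knockdown partner was 219 bp wide. A peak of 124 bp on chromosome 8 from 72930905 to 72931028 had 18 reads in each library. The peak on chromosome 3 from 27399288 to 27399415 was 124 bp wide in the knockdown and 128 bp in the control list, with 22 and 18 reads and summits 5 bp apart. All 3 had counting intervals of the ratio that include 1 (0.41 to 1.71, 0.366 to 1.52 and 0.466 to 1.8).

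The strong narrow shared peaks stood apart from other peaks more often than the strong wide ones. The nearest other control peak was a median of 19.7 kb away, against 15.5 kb for strong wide shared peaks and 11.9 kb for all control peaks. It was 100 kb or more away at 46 of 796 peaks, or 5.78% (4.26 to 7.63%), against 2.49% of strong wide and 2.88% of weaker narrow shared peaks. The differences were 3.29 points (1.72 to 5.21) and 2.9 points (1.34 to 4.82). Over all control peaks the share was 3.44% (1895 of 55124). Strong narrow control peaks with a weaker knockdown partner had a share of 5.65%, and the difference of 0.132 points had an interval that includes 0 (-2.13 to 2.42). Those with no knockdown partner had 5.77% (6 of 104, 2.15 to 12.1%). Isolation is thus not shown to be particular to peaks with a strong partner.

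Close neighbours were also scarcer. Another control peak lay within 5 kb of 104 of the 796 peaks, or 13.1%, against 19.2% of strong wide shared peaks, a difference of -6.1 points (-8.79 to -3.17), and 16538 of all 55124 control peaks. Strong narrow control peaks with a weaker knockdown partner had 15.5%, and the difference of -2.46 points had an interval that includes 0 (-5.84 to 0.934). Those with no knockdown partner had 5.77% (6 of 104, 2.15 to 12.1%). Scarce close neighbours are thus not shown to be particular to peaks with a strong partner. Reads of a neighbour that close count in the 10 kb background of the fold, and the part of this in the shares was not tested. The spacing curve steepens at 5 kb in every group.

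**Figure D4:**
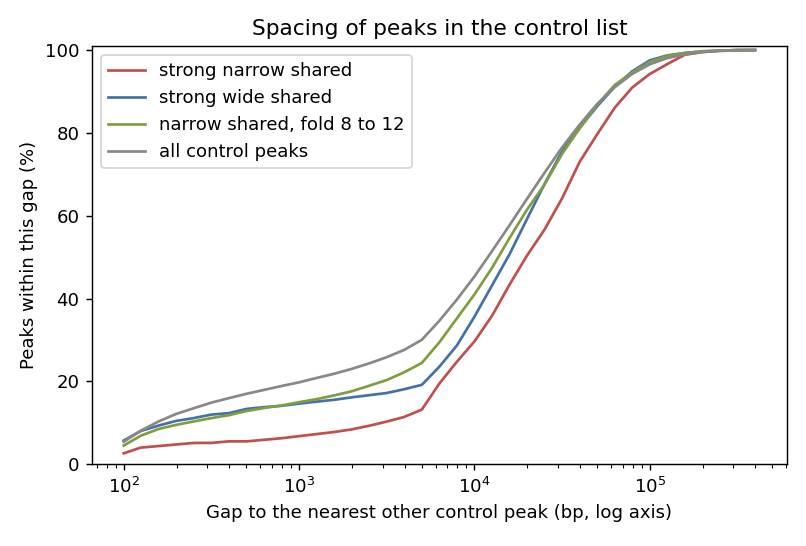
Cumulative share of control peaks by the gap in bp (log axis) to the nearest other control peak, for the strong narrow shared, strong wide shared, weaker narrow shared and all control peaks. The strong narrow shared peaks run below the other curves up to a gap of 199526 bp, beyond which the curves meet and cross, with 13.1% within 5 kb and 5.78% at 100 kb or more.

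The most isolated peak of the set lay on chromosome 4 from 118621792 to 118621968, 252 kb from any other control peak, with 23 reads in the knockdown and 20 in the control library. A peak on chromosome 3 from 83572747 to 83572909 had its nearest neighbour 246 kb away, and 27 and 30 reads in knockdown and control. A peak on chromosome 6 from 102562364 to 102562514, at 245 kb, had 30 and 24 reads. Their depth-scaled ratios of 0.857, 0.671 and 0.932 all had intervals that include 1 (0.45 to 1.65, 0.384 to 1.17 and 0.527 to 1.67). Over the 46 isolated peaks the median log2 ratio was -0.28, over the 104 peaks with a neighbour within 5 kb it was -0.29, and over the 646 between it was -0.31.

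Distances between peaks of the set had no comparison group and are a description only. The nearest other peak of the set was a median of 872 kb away, and 4 of 796 had one within 10 kb. The closest pair, on chromosome 1, was 6205 bp apart. Its first peak, from 171196002 to 171196203, had 24 reads in each library, and its second, from 171202409 to 171202631, had 31 reads in the knockdown and 40 in the control library. The ratio of the second was 0.578 (0.349 to 0.947) and that of the first 0.745 (0.405 to 1.37). A pair on chromosome 4, from 27686206 to 27686398 and from 27693798 to 27694024, had 20 and 35 reads in the knockdown and 21 and 26 in the control library. Another pair on chromosome 4, from 156717282 to 156717494 and from 156731078 to 156731270, had 23 and 22 reads in the knockdown and 21 and 22 in the control library. Among 565 windows of 5 Mb that had 40 or more control peaks, 197 held 0 of the set, and the fullest held 9, on chromosome 7 from 35 to 40 Mb.

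Other control peaks near the set had a knockdown partner about as often as control peaks in general. Within 50 kb of the 796 peaks lay 1524 other control peaks, of which 925 had a knockdown partner, or 60.7% (58.2 to 63.2%), where 60.5% of all control peaks had one. Near strong wide shared peaks the share was 62.5%, and the difference of -1.8 points had an interval of -4.58 to 0.938. Near strong narrow control peaks with no knockdown partner it was 56.6% of 219 (49.8 to 63.3%).

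The peaks were unevenly spread over chromosomes. As a share of control peaks they made up 2.29% on chromosome 4 (78 of 3410) and 2.28% on chromosome 12 (71 of 3117), and the counting intervals of chromosomes 3, 5, 6 and 7 also lay above the 1.44% of all chromosomes. Intervals lay below it on chromosomes 9, 15, 16, 17, 19, 20, 22 and X. Chromosome 19 held 3 of the set among 1524 control peaks, or 0.197% (0.0406 to 0.574%), and chromosome 17 held 8 among 1844, or 0.434%. Gene density was not measured, and its part in these shares was not tested. In all, 14 of 23 chromosomes lay outside, where counting error alone would give about 1.15.

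Against strong control peaks alone, fewer chromosomes stood apart, over smaller numbers. As a share of control peaks with a fold of 12 or more, the set was outside the 14.3% of all chromosomes on 4 of 23 chromosomes. Chromosome 6 was above at 20.3% (66 of 325), and chromosomes 15, 19 and X were below at 5.43% (5 of 92), 4.41% (3 of 68) and 8.16% (12 of 147). Among strong shared peaks of any width, narrow ones made up 24.2% in all, 36.9% on chromosome 18, 33.8% on chromosome 6 and 30.5% on chromosome 4. They made up 10.9% on chromosome 15, 12.5% on chromosome 17 and 6.38% on chromosome 19, and these 6 were the chromosomes with intervals outside 24.2%. Chromosome 6 above and chromosomes 15 and 19 below kept their direction against these 3 denominators, but against strong narrow control peaks chromosomes 6 and 19 had intervals that include the share of all chromosomes (53.2%, 44.1 to 62.2%, and 42.9%, 9.9 to 81.6%). Among strong narrow control peaks, the share with a strong knockdown partner was 45.5% in all and lay below it on chromosome 15, at 19.2% of 26, and on chromosome X, at 12 of 48 (13.6 to 39.6%). These were 2 of 23 chromosomes, where counting error alone would give about 1.15, so little is read from them.

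**Figure D5:**
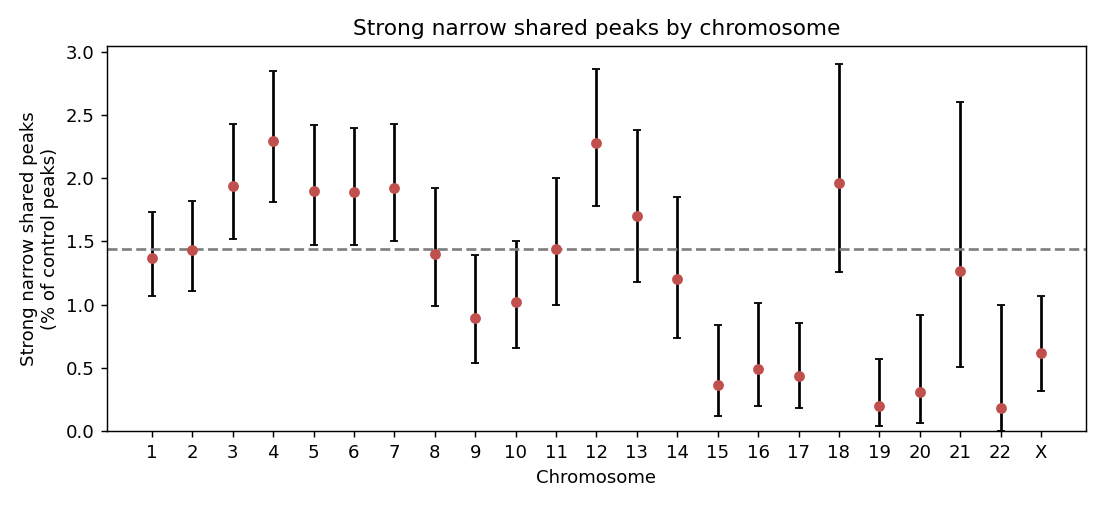
Strong narrow shared peaks as a percentage of all control peaks on each chromosome, with exact 95% binomial intervals; the dashed line is the 1.44% of all chromosomes. Chromosomes 4 and 12 are highest at 2.29% and 2.28%, and chromosomes 19 and 22 lowest at 0.197% and 0.181%.

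Values of the peaks themselves are given for chromosomes with at least 19 peaks of the set. Only the share of narrow knockdown partners has intervals here, and differences in the other values were not tested. The median depth-scaled log2 ratio was between -0.42 on chromosome 1 (71 peaks) and -0.21 on chromosome 14 (20 peaks), and below 0 on each of the 15 chromosomes. The median summit distance was between 8.5 bp on chromosome 14 and 22 bp on chromosome 10. Depth-scaled summits at least 1.5-fold lower in the knockdown library made up between 4.17% on chromosome 18 (24 peaks) and 28.0% on chromosome 10 (25 peaks), beside 15.3% of the set. The share of narrow knockdown partners was between 60.0% on chromosome 14 (36.1 to 80.9%) and 86.8% on chromosome 8 (71.9 to 95.6%), and every interval included the 74.7% of the whole set.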

How the data were processed

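ATAC-seq peak lists of 1 SMARCA4-knockdown and 1 control library were used. Per the submitters' processing notes, reads passed bcl2fastq 2.17.1.14, BWA and MACS2 with the build hg19; the sources used here give no parameters and no other versions. The deposited fold is a ratio of summit to background reads, each with 1 read added. The −log10 p and −log10 q values, the score (10 times −log10 q) and the summit position are likewise as deposited by the authors. Peak names hold the terms sort, rmdup and DMSO. Peaks were called in each library by the authors, since names are particular to each list.

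Pileup and background were solved from fold and p-value with a Poisson tail (scipy 1.17.1), and recovered −log10 p-values lay within 4.2e-05 of the deposited ones. Put through the same formula and solved again, all 41540 knockdown and 55124 control pileups came back. The formula itself was not tested in this way. The smallest peak widths, 89 bp in the knockdown and 94 bp in the control list, served as extension lengths for the read numbers. Of all background values above the lowest, each was a whole number of reads per 10 kb within 0.02 reads.

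A peak's partner was its overlapping knockdown peak of highest fold. Shares carry Clopper-Pearson intervals and differences of shares Newcombe intervals (statsmodels 0.14.6), both at 95%. Reads without molecular identifiers are not independent molecules. Regions were named by rank of fold, ratio, width, gap to other peaks and closeness to the limits. The members, lists and rules were chosen with earlier results of these data known. Alternatives varied the fold, width and overlap limits and the scaling. Chromosome Y was left out.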

Additional observations from a re-analysis of the deposited data

How the results depend on the processing

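No paired analysis was possible because each group has 1 library, and for the same reason no replicate could be left out. Of 42 alternatives, 29 stayed within counting error of the main value, or within 1.5 times for a count. The 796 peaks became 1875 at a fold of 10, 192 at a fold of 15 and 369 at a width below 200 bp. The share of narrow knockdown partners, 74.7%, was 69.3% at a fold of 15, 81.8% below 200 bp, 62.0% below 300 bp, and 40.5% when the partner had to be no wider than the control peak. The median summit distance of 15 bp was 11.5 bp at a fold of 15 and 12 bp below 200 bp. The median log2 summit ratio of -0.30 was -0.16 with local scaling, -0.0603 after centring on all shared pairs, and reversed to 0.12 with no scaling. Chromosomes outside the overall share numbered 14, or 4 against strong control peaks alone. Other limits change by construction which peaks enter; beyond that the cause was not tested. Distances of 20 and 100 kb for neighbouring peaks were chosen after seeing the data. With median summits of 24 reads in the knockdown and 22 in the control library, the ratio of a single peak has a wide counting interval.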
